A study of Homo sapiens with 14 samples.

Results

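Some of the genes examined here encode the ubiquitin ligase through which thalidomide, lenalidomide and pomalidomide act in multiple myeloma (MM). Others encode proteins that the drug-bound ligase marks for destruction, or relatives of those proteins. The members were 10 named genes. CRBN, DDB1, CUL4A and CUL4B encode parts of the ligase. The 5 genes IKZF1 to IKZF5 encode the Ikaros family of zinc finger proteins, in which those of IKZF1 and IKZF3 are the best known drug substrates. ZFP91 encodes a zinc finger substrate outside this family. Members were found as reference peaks of open chromatin overlapping the gene body of one of these genes, or the 100 kb on either side of it (the gene's window), by the GENCODE annotation. The windows held 138 of the 72802 reference peaks of the MM.1S line and 124 of the 79969 reference peaks of the RPMI8226 line, around 10 of 20033 protein-coding genes.

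Omni-ATAC, which tags open DNA with a transposase, was run on 14 libraries from MM.1S and RPMI8226, established human plasma cell myeloma lines. Cells grown alone (MONO) were set against cells cultured with HS5, a human bone marrow stromal line, and taken from the upper transwell (TSW) or from the lower chamber where they met the stromal cells (CO). MM.1S contributed 3 MONO, 3 TSW and 3 CO libraries, and RPMI8226 contributed 1 MONO, 2 TSW and 2 CO libraries, each made from MM cells sorted on surface CD90 and CD38. The labels name no drug in any library. HS5 is 1 line standing in for the stroma of the marrow, and each myeloma line comes from 1 tumor.

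The authors deposited 1 list of peaks per line, covering all culture conditions of that line, with a whole number beside each peak. This number, called support here, was read as the count of libraries in which the peak was called, and it ran from 3 to 9 in MM.1S and from 3 to 5 in RPMI8226. The lists give no reads and no value for a single library, so that MONO, TSW and CO could not be compared at any gene. A peak missing from a list was called in fewer than 3 libraries of that line. It was not shown to be closed. All values are descriptions, without replicate lists and without tests. Intervals on shares are 95% Wilson intervals over peaks, which cover counting error only, and neighbouring peaks are not independent.

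Cereblon, the product of CRBN, is the substrate receptor of a cullin-RING ligase. DDB1 links it to a cullin scaffold, CUL4A or CUL4B, which brings in the ubiquitin-conjugating enzyme. The drugs bind cereblon and change the surface it offers, so that Ikaros (IKZF1) and Aiolos (IKZF3), on which MM cells depend, are ubiquitinated and degraded. Loss of cereblon is known to make MM cells resistant to these drugs. Ikaros proteins bind DNA with a core of TGGGAA and can both repress and activate transcription in lymphoid cells.

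Sequences of 7 regions are shown because the account below turns on them. They are the regions directly before the start sites of the drug receptor gene and of its substrate gene IKZF1, a distal peak near CRBN and a distal peak near IKZF3 that were open in both lines, and 3 IKZF1 peaks that were listed for MM.1S only. Both promoter sequences are the 250 bases before a start site, from RefSeq on GRCh38.p14, in the direction of the gene. The others are the central 300 bases of the MM.1S peak on hg38. Capitals mark matches to the Ikaros core (TGGGAA, or TTCCCA on the other strand) and, in the CRBN distal peak, an interferon regulatory factor repeat (GAAANNGAA).
CRBN promoter, chr3:3179692-3179941, minus strand: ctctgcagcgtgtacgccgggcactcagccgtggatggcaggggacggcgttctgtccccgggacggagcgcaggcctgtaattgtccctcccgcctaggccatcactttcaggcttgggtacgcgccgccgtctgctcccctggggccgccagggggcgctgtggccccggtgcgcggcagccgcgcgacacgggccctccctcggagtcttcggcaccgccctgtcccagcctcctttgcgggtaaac
IKZF1 promoter, chr7:50304466-50304715, plus strand: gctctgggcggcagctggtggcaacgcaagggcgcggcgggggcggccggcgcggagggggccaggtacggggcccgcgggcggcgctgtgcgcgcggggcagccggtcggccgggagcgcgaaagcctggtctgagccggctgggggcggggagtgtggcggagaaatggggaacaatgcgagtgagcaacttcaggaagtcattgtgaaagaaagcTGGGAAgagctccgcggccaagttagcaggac
CRBN distal peak 22.1 kb upstream, chr3:3201673-3201972, plus strand: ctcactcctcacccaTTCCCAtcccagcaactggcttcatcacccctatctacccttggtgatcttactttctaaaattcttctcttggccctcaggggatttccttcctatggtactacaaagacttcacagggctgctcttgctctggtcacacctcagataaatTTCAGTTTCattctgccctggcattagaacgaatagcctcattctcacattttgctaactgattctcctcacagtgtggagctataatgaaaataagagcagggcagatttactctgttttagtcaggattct
IKZF3 distal peak 110.0 kb downstream, chr17:39754193-39754492, plus strand: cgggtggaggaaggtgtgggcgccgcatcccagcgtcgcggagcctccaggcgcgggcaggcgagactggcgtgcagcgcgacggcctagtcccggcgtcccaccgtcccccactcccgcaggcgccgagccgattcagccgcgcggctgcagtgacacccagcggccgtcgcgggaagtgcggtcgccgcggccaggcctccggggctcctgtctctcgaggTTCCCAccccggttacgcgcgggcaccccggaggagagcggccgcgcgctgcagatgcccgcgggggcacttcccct
IKZF1 distal peak 22.6 kb upstream, chr7:50281982-50282281, plus strand: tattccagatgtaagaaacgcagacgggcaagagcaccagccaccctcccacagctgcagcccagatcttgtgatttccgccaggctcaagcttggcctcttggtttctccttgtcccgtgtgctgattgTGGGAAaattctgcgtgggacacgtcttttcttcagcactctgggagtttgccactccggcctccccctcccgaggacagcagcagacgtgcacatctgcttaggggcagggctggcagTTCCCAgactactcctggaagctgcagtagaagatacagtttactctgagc
IKZF1 peak 11.6 kb downstream, chr7:50316214-50316513, plus strand: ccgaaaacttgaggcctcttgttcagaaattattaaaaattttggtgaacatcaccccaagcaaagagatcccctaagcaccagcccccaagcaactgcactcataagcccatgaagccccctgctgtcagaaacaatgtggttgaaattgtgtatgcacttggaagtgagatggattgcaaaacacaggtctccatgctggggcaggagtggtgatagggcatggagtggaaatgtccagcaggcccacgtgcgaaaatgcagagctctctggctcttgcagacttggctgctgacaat
IKZF1 peak 25.2 kb downstream, chr7:50329767-50330066, plus strand: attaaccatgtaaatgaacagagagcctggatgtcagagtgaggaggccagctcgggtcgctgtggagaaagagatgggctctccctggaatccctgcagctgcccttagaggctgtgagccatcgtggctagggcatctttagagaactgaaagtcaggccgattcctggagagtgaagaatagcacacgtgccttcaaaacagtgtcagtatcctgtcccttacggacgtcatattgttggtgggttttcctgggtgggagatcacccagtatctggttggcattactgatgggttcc
The CRBN promoter shown lies wholly within a peak of each line. Of the 250 IKZF1 promoter bases, all were in an MM.1S peak and 126 were in RPMI8226 peaks. The last 3 IKZF1 sequences held no base of any RPMI8226 peak. A letter match is a description of the sequence and was not tested as a binding site.

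Every member had a peak at an own promoter in both lines, that is, within 2500 bp of an annotated start site of one of its transcripts. This was so for 10 of 10 members in MM.1S, where 76.8% of protein-coding genes had a promoter peak, and for 10 of 10 in RPMI8226, where 71.8% had one. The 10 members also had a promoter peak in both lines with full support, that is, called in every library of the line. The share of all protein-coding genes with full support at a promoter was not computed, so this count has no background. With only the canonical transcript of each gene, an alternative added after seeing the data, the count was 9 in each line. The gene without such a peak was IKZF4, and this count has no background over all genes either.

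The windows held 21 own-promoter peaks in each list. In MM.1S 59 further peaks lay at promoters of other genes and 58 were distal. In RPMI8226 61 lay at promoters of other genes and 42 were distal. Thus 58.0% (49.6 to 65.9) of the MM.1S window peaks were at a promoter, against 39.2% of all MM.1S peaks, and 66.1% (57.4 to 73.9) of the RPMI8226 window peaks, against 36.0% of all RPMI8226 peaks. The windows were drawn around genes, several of them in gene-rich stretches. IKZF4 had 13 other protein-coding genes in its window and IKZF3 had 12, whereas IKZF2 had 0.

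**Figure D1:**
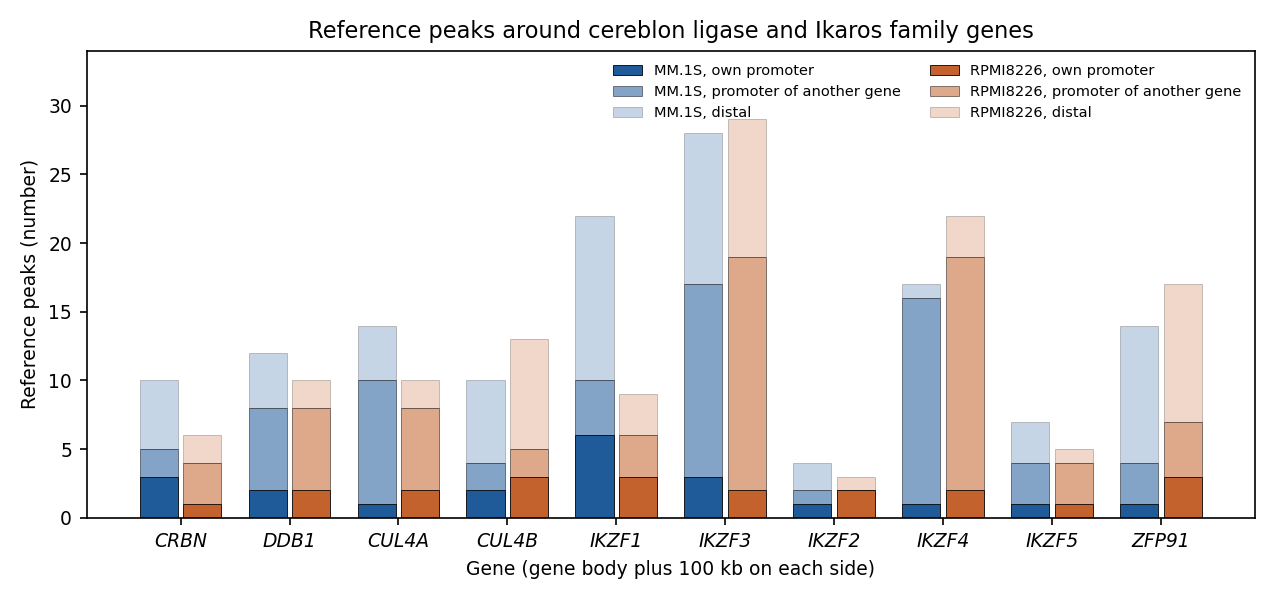
Number of reference peaks (vertical axis) in the window of each gene (horizontal axis), with MM.1S in blue and RPMI8226 in orange. Dark, middle and light parts of a bar are own-promoter peaks, peaks at promoters of other genes and distal peaks. IKZF1 had 22 MM.1S and 9 RPMI8226 peaks, and IKZF3 had 28 and 29.

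Sharing between the lists differed by list. Of the 138 MM.1S window peaks, 93 (67.4%, 59.2 to 74.6) overlapped an RPMI8226 peak by at least 1 bp, close to the 64.6% of all MM.1S peaks. Of the 124 RPMI8226 window peaks, 103 (83.1%, 75.5 to 88.6) overlapped an MM.1S peak, above the 62.0% of all RPMI8226 peaks. Peaks at promoters were shared more often than distal peaks in each window set, at 80.0% and 50.0% in MM.1S and at 89.0% and 71.4% in RPMI8226. The whole lists had the same order. Among all promoter peaks, 71.8% of the MM.1S and 76.6% of the RPMI8226 peaks were shared. Among all distal peaks, 60.0% of the MM.1S and 53.7% of the RPMI8226 peaks were shared. Promoter peaks were a larger part of the windows (58.0% and 66.1%) than of the lists (39.2% and 36.0%), which bears on the total shares. The low MM.1S distal share came with IKZF1, where 2 of 12 distal peaks were shared. Without the IKZF1 window, an alternative added after seeing the data, 27 of 46 distal MM.1S peaks (58.7%) were shared, close to the list, and 28 of 39 in RPMI8226 (71.8%), above the list.

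Support in the windows was near that of the list in MM.1S and above it in RPMI8226. In MM.1S 77 peaks (55.8%, 47.5 to 63.8) had been called in all 9 libraries, against 52.0% of the list. In RPMI8226 93 peaks (75.0%, 66.7 to 81.8) had been called in all 5, against 64.1% of the list. Window peaks lay at promoters more often than list peaks, and support was not set beside the list for promoter and distal peaks apart. A peak with support of up to 6 in MM.1S, or of up to 4 in RPMI8226, could be missing from every MONO library. There were 37 such peaks in MM.1S (26.8%, against 27.7% of the list) and 31 in RPMI8226 (25.0%, against 35.9% of the list). The files do not tell which libraries lacked them.

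CRBN, the drug receptor gene (chr3:3144628-3179727, minus strand), had an open start site in both lines. The peak over it was 793 bp wide with support 9 of 9 in MM.1S and 634 bp wide with support 5 of 5 in RPMI8226. MM.1S had another pair of own-promoter peaks inside the gene, 6.4 kb downstream (454 bp, support 7) and 7.0 kb downstream (341 bp, support 5). They lay within 2500 bp of internal start sites, but only of transcripts not annotated as protein-coding. Neither had a counterpart in RPMI8226. Of 12 annotated CRBN start sites, 6 lay inside a peak in each line. Within 2500 bp of a peak lay 9 in MM.1S and 6 in RPMI8226. The nearest distal region lay 22.1 kb upstream of the start site, between genes. It was 623 bp wide in MM.1S and 418 bp in RPMI8226, was called in all libraries of each line, and was the widest distal peak of the CRBN window in both. Its central bases, printed above, hold an Ikaros core match.

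The rest of the CRBN window lay in and around IL5RA, the interleukin-5 receptor gene, and TRNT1, which encodes an enzyme of tRNA maturation. A start region of both genes 52.7 kb downstream was open in both lines with full support. An MM.1S peak 91.3 kb downstream, within IL5RA (418 bp, support 9), had no RPMI8226 counterpart, whereas an RPMI8226 peak at another IL5RA start site 69.4 kb downstream (390 bp, support 4) had none in MM.1S. In total CRBN had 10 MM.1S peaks, 5 of them shared, and 6 RPMI8226 peaks, 5 of them shared. Relative to window length these were 4.25 and 2.55 peaks per 100 kb, which rank at the 52.1 and 26.7 percentiles of protein-coding genes. The larger MM.1S count ran opposite to the whole of chromosome 3, which had 4802 MM.1S and 6329 RPMI8226 peaks. A difference of at least 4 peaks toward MM.1S was found at 13.2% of protein-coding genes.

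DDB1, the adaptor (chr11:61299451-61342596, minus strand), had most of its peaks at the same places in both lines. Its start region, which it shares with the metabolic kinase gene TKFC, was covered by a 1080 bp peak in MM.1S and a 760 bp peak in RPMI8226. A smaller own-promoter peak lay 3.2 kb upstream, at 342 and 319 bp, and all of these peaks had full support. In its window 9 of 12 MM.1S and 9 of 10 RPMI8226 peaks were shared, and the same numbers, 9 and 9, were called in all libraries. The widest distal peak was 509 bp in MM.1S, 78.5 kb downstream, and 357 bp in RPMI8226, 52.7 kb upstream, and both positions were open in both lines with full support.

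CUL4A, a scaffold of the ligase (chr13:113208193-113267108, plus strand), began in a single MM.1S peak of 2251 bp with support 9, where RPMI8226 had adjoining peaks of 1559 and 395 bp with support 5 each. This start region serves PCID2 on the other side. The RPMI8226 peaks left the canonical start site itself uncovered by 6 bp. Inside the gene the lists differed by 1 peak, an RPMI8226 intronic peak 7.3 kb downstream (258 bp, support 4). Upstream of CUL4A, toward the coagulation genes F10 and PROZ, MM.1S had further line-only peaks. They belonged partly to a run of 11 consecutive MM.1S-only peaks, none of them called in all libraries, that reached into the window from outside. Runs that long made up 0.182% of the 14799 runs of MM.1S-only peaks. In this direction lay the widest distal MM.1S peak, 62.6 kb upstream (691 bp, support 8, MM.1S only), and an RPMI8226-only peak at an F10 start site 70.3 kb upstream (592 bp, support 5). The widest distal RPMI8226 peak (370 bp, support 5), 79.5 kb downstream, was shared. Of the 14 MM.1S peaks 7 were shared, and 7 had support of up to 6.

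CUL4B, the other scaffold, on the X chromosome (chrX:120505920-120604074, minus strand), was open at separate start regions in both lines. The peak at the canonical start was 1469 bp wide in MM.1S and 1284 bp in RPMI8226, with full support. The upstream start region, 43.3 kb away and shared with MCTS1, a translation factor gene, was a 969 bp peak with support 9 in MM.1S. In RPMI8226 it was split into a 625 bp peak with support 5 and a 175 bp peak with support 3. The widest distal peak, 136.1 kb upstream, was shared at 1080 and 692 bp with full support. An MM.1S-only distal peak with support 9 lay 74.9 kb downstream (816 bp), between CUL4B and the lysosomal membrane gene LAMP2. RPMI8226 had 4 distal peaks of its own, 1 of them within the gene, with support of 3 or 4 and widths of 184 to 265 bp. The ligase genes together had 46 MM.1S peaks, 63.0% of them shared, against 64.6% of the list. They had 39 RPMI8226 peaks, 79.5% of them shared, against 62.0% of the list. Promoter peaks made up 27 of the 46 and 25 of the 39.

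**Figure D2:**
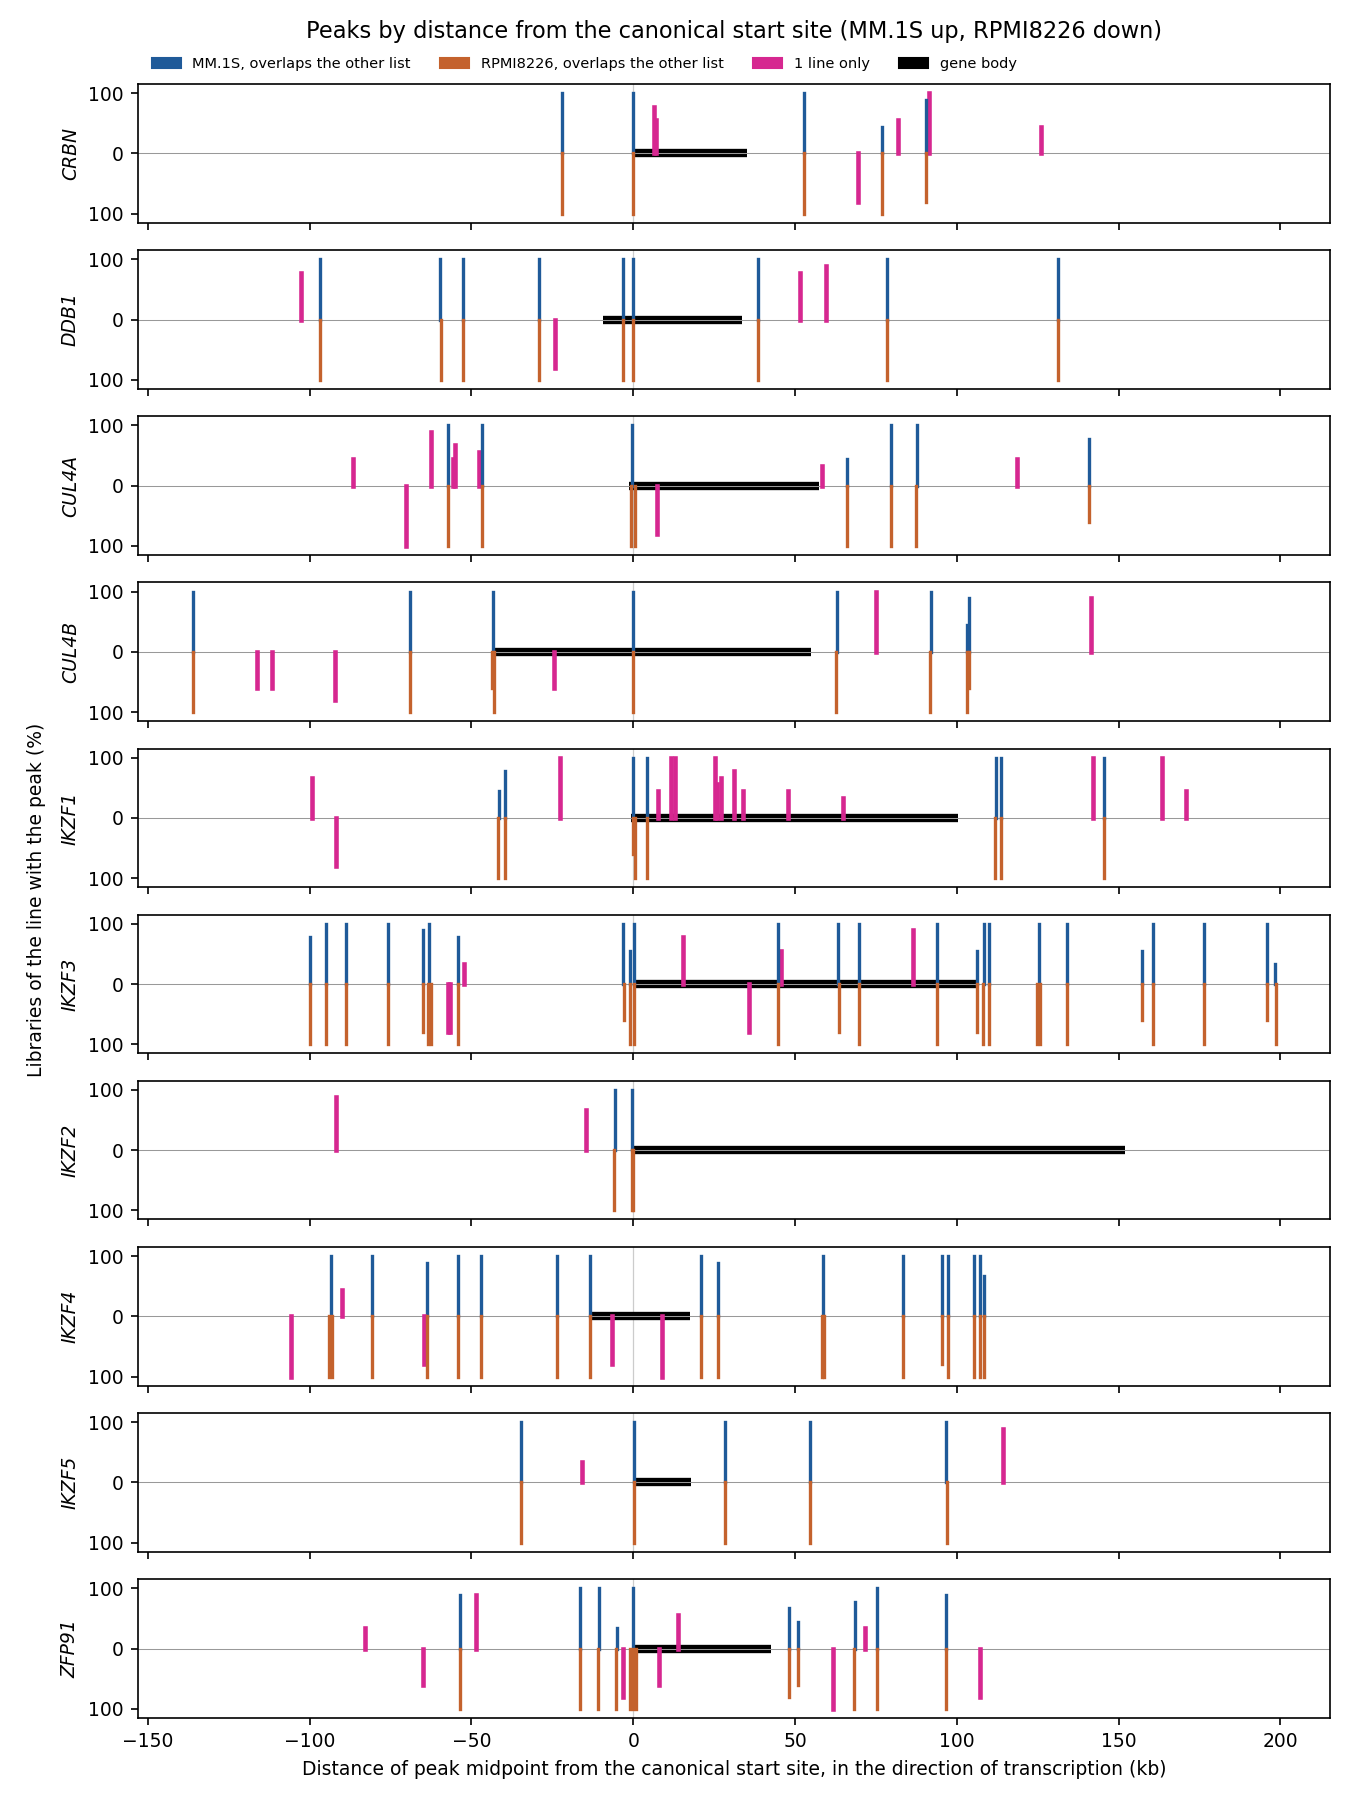
Peaks of each window by distance of the peak midpoint from the canonical start site in kb (horizontal axis, in the direction of transcription), with 1 row per gene. Lines up are MM.1S and lines down RPMI8226, their length is the percent of libraries of the line with the peak, and magenta lines were listed for 1 line only. The MM.1S-only lines inside IKZF1 face an empty lower side, whereas lines above and below mostly face each other at DDB1, IKZF3 and IKZF4.

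IKZF1, the gene of Ikaros (chr7:50304068-50405101, plus strand), was where the lines differed most among these genes. MM.1S had 22 peaks in its window and RPMI8226 had 9. The windows' lengths are equal, so these are 7.31 and 2.99 peaks per 100 kb, at the 80.1 and 32.7 percentiles of protein-coding genes. Of the 22 MM.1S peaks 7 were shared (31.8%, 16.4 to 52.7), against the 64.6% of the list, and 15 were MM.1S only. Of the 9 RPMI8226 peaks 8 were shared. Among 11160 genes with at least 10 MM.1S peaks in their window, the median gene shared 71.4%, and IKZF1 ranked at the 1.57 percentile. IKZF1 met this minimum in MM.1S, where its count was high. With 9 RPMI8226 peaks it fell below the same minimum in the other list, so it has no rank there. A difference of 13 or more peaks toward MM.1S was reached by 61 of 20033 protein-coding genes (0.304%), and 15 or more MM.1S-only peaks by 111 (0.554%). Nearby genes share windows, so these genes are not separate places. Chromosome 7 as a whole had similar counts, 4210 and 4062 peaks.

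The start of IKZF1 was open in both lines. MM.1S had a 1060 bp peak with support 9, and RPMI8226 had peaks of 255 bp with support 3 and 204 bp with support 5 within the same stretch. A further own-promoter peak about 4.3 kb downstream was shared, at 574 bp with support 9 and 434 bp with support 5. Beyond it the lists parted. From 7.6 to 64.9 kb downstream MM.1S had 10 consecutive peaks without a counterpart in the other line, over 57.5 kb. Own-promoter peaks among these lay 11.6 kb (792 bp, support 9), 12.8 kb (443 bp, support 9), 25.2 kb (478 bp, support 9) and 64.9 kb downstream (155 bp, support 3), within 2500 bp of start sites of other IKZF1 transcripts. Of these own-promoter peaks, only that 25.2 kb downstream was so near a start site of a protein-coding transcript. The other 6 of the 10 were distal and intronic, with support between 4 and 7. Runs of this length or longer were 47 of 14799 (0.318%) in the MM.1S list. RPMI8226 had no peak for 107 kb, from the shared peak near the start to one past the end of the gene, and all 10 lay in this stretch.

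MM.1S-only peaks also lay outside the gene body, but upstream of it the lists were closer. Peaks about 41.6 and 39.7 kb upstream were shared, with support 4 and 7 in MM.1S and support 5 each in RPMI8226. An MM.1S-only peak lay 99.2 kb upstream (437 bp, support 6). The widest peak of the window was an MM.1S-only distal peak 22.6 kb before the start site (1178 bp, support 9), whose central bases hold 2 Ikaros core matches. Distal MM.1S-only peaks with support 9 also lay 142.1 kb downstream within FIGNL1 (358 bp) and 163.4 kb downstream within DDC (627 bp), so that 6 MM.1S-only peaks of the window had been called in every library. By contrast, distal peaks about 112.0 and 113.6 kb downstream, past the end of the gene, were shared and had full support in both lines, and the former was the widest RPMI8226 distal peak at 460 bp. RPMI8226 had 1 peak of its own, 91.9 kb upstream (187 bp, support 4). In all, MM.1S peaks covered 11.3 kb of the window and RPMI8226 peaks 3.09 kb.

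Other settings, added after seeing the data, kept the IKZF1 count higher in MM.1S. In the gene body alone MM.1S had 12 peaks and RPMI8226 had 3. Peaks with full support numbered 11 and 7, and peaks called in at least 3 of every 5 libraries numbered 15 and 9. Peaks no narrower than the median of their list numbered 7 and 4. Without the IKZF1 window, 74.1% of the remaining MM.1S window peaks were shared, in place of 67.4%.

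**Figure D3:**
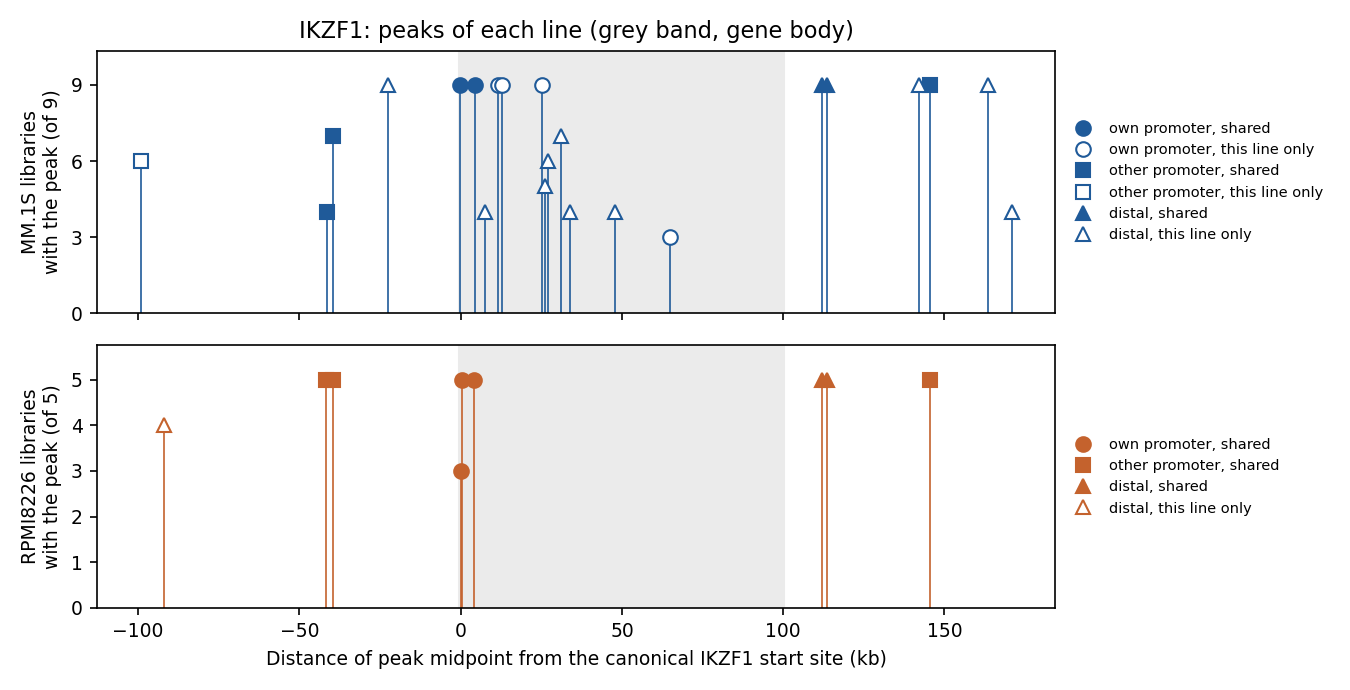
Support of each IKZF1 peak (vertical axis, libraries with the peak) by distance of its midpoint from the canonical start site in kb (horizontal axis), for MM.1S above and RPMI8226 below. Circles are own-promoter peaks, squares peaks at promoters of other genes and triangles distal peaks, and filled symbols overlap a peak of the other list. Of the 22 MM.1S symbols 15 are open, and the gene body (grey) holds 12 MM.1S and 3 RPMI8226 peaks.

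IKZF3, the gene of Aiolos (chr17:39757718-39864312, minus strand), was the opposite case: its window was dense in peaks and alike in the lines. It had 28 MM.1S peaks, 24 of them shared, and 29 RPMI8226 peaks, 26 of them shared. At 9.13 and 9.46 peaks per 100 kb it ranked at the 90.2 and 91.1 percentiles. The start site was covered by a 491 bp peak with support 9 in MM.1S and a 504 bp peak with support 5 in RPMI8226. A further own-promoter peak 0.9 kb upstream was 385 bp with support 5 and 397 bp with support 5. A further own-promoter peak at an internal start site 86.3 kb downstream was listed for MM.1S only (671 bp, support 8).

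The introns of IKZF3 were open at matching places. Shared distal peaks lay within introns about 44.7, 63.4, 69.8 and 94.0 kb downstream and at an exon 106.1 kb downstream. The peak 94.0 kb downstream was the widest distal peak in RPMI8226 at 842 bp and measured 962 bp in MM.1S. Just past the end of the gene, peaks 108.3 and 110.0 kb downstream were shared with full support, and the latter was the widest distal MM.1S peak at 1151 bp and measured 590 bp in RPMI8226. Its central bases, printed above, had a GC content of 76.3% and 44 CpG dinucleotides. Line-only distal peaks within the gene were few: MM.1S had one 15.5 kb downstream (269 bp, support 7) and one 45.7 kb downstream (366 bp, support 5), and RPMI8226 had one 35.8 kb downstream (207 bp, support 4). Beyond the gene, other promoters supplied 14 MM.1S and 17 RPMI8226 peaks, among them those of ERBB2, GRB7, ORMDL3, GSDMA and GSDMB.

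IKZF1 and IKZF3, the best known drug substrates in MM, thus had similar MM.1S counts of 22 and 28, but RPMI8226 counts of 9 and 29. Together 62.0% of their 50 MM.1S peaks were shared, against 64.6% of the list. Of their 38 RPMI8226 peaks 89.5% were shared, against 62.0% of the list. Promoter peaks made up 27 of the 50 and 25 of the 38.

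**Figure D4:**
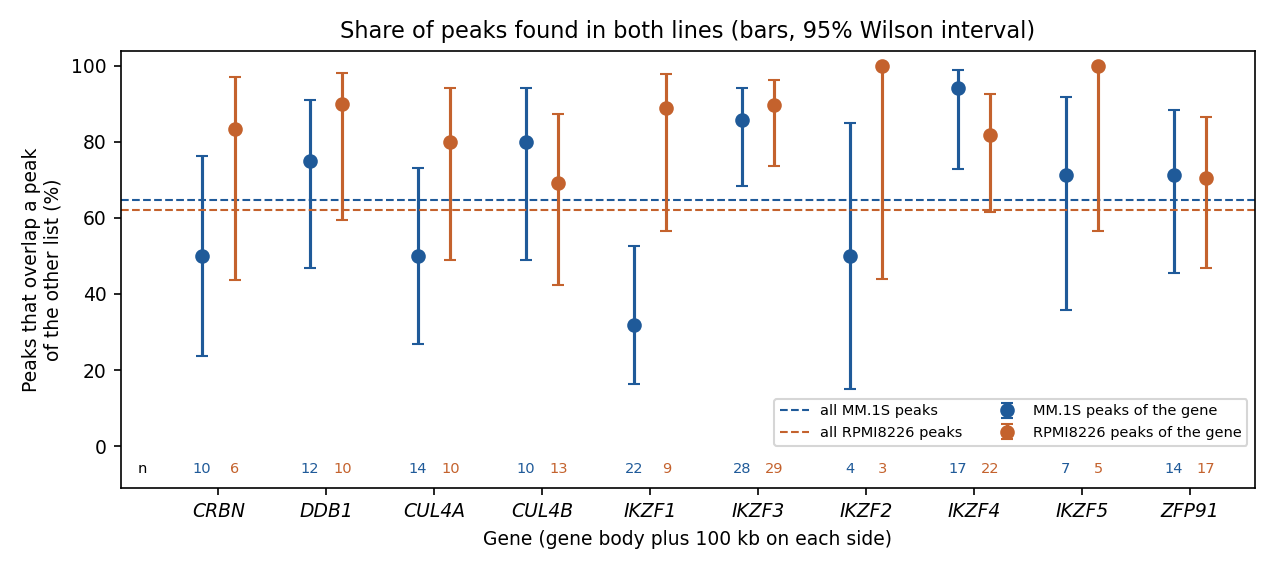
Percent of the peaks of each gene that overlap a peak of the other list (vertical axis) for MM.1S (blue) and RPMI8226 (orange), with 95% Wilson intervals, the number of peaks below, and dashed lines at the share of each whole list. The interval of IKZF1 in MM.1S is 16.4 to 52.7, and the MM.1S line is at 64.6%. The intervals count neighbouring peaks as if independent, which they are not, and are no test.

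IKZF2, the gene of Helios (chr2:212999691-213152427, minus strand), known from regulatory T cells, had the fewest peaks. There were 4 in MM.1S and 3 in RPMI8226, or 1.13 and 0.85 per 100 kb, at the 8.83 and 6.16 percentiles. Its start region was nevertheless open in all libraries of both lines, as a 1153 bp peak in MM.1S and as peaks of 289 and 533 bp in RPMI8226. A small distal peak 5.8 kb upstream was shared at 347 and 292 bp with full support. MM.1S alone had its widest distal peak 92.0 kb upstream (623 bp, support 8). Apart from the start region, neither list had a peak inside the gene or in the 100 kb after its end.

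IKZF4, the gene of Eos (chr12:56007659-56038435, plus strand), was the only member with no peak within 2500 bp of its canonical start site in either line. The nearest peak was 12903 bp away in MM.1S and 6560 bp away in RPMI8226. Its upstream start region, 13.4 kb before the canonical one, was open in both lines, at 1061 bp with support 9 and 778 bp with support 5. RPMI8226 also had an own-promoter peak 8.9 kb downstream (234 bp, support 5), near an internal start site of a transcript not annotated as protein-coding. It had an intronic distal peak 6.7 kb upstream of the canonical start (263 bp, support 4) as well, and both were absent from the MM.1S list. The other peaks were mainly at promoters of neighbours, 15 of 17 in MM.1S and 17 of 22 in RPMI8226, including CDK2, RPS26, ERBB3 and PA2G4. The widest distal peaks were a shared one 26.1 kb downstream in MM.1S (493 bp, support 8) and an RPMI8226-only one 105.8 kb upstream with support 5 (357 bp). Shared peaks were 16 of 17 in MM.1S and 18 of 22 in RPMI8226, and 2 of the 4 RPMI8226-only peaks had been called in all libraries.

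IKZF5, the gene of Pegasus (chr10:122990807-123008812, minus strand), had 7 MM.1S and 5 RPMI8226 peaks, and all 5 of the latter were shared. Its start region, shared with ACADSB, an enzyme gene of branched-chain fatty acid breakdown, had peaks of 1438 and 1314 bp with full support. It held all 5 annotated start sites of the gene in each line. The widest distal MM.1S peak, 114.3 kb downstream (634 bp, support 8), was MM.1S only, and the widest in RPMI8226 was a shared peak of 222 bp 34.8 kb upstream. For IKZF2, IKZF4 and IKZF5 together, 82.1% of 28 MM.1S peaks were shared, against 64.6% of the list. In RPMI8226 86.7% of 30 were shared, against 62.0% of the list. Most of these peaks were at promoters, 22 of 28 and 25 of 30. Over the lists 71.8% and 76.6% of promoter peaks were shared. Of the distal peaks of these genes, 3 of 6 in MM.1S and 3 of 5 in RPMI8226 were shared.

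ZFP91, the zinc finger substrate outside the Ikaros family (chr11:58579063-58621550, plus strand), had the widest own-promoter peak in MM.1S, 2365 bp with support 9. RPMI8226 had 3 peaks over the same region, of 792, 522 and 518 bp, each with support 5. The region also serves LPXN, the gene of the adhesion adaptor leupaxin. Distal peaks made up 10 of 14 in MM.1S and 10 of 17 in RPMI8226, the largest distal share of any member in MM.1S and second to CUL4B (8 of 13) in RPMI8226. The widest distal peak, about 68.4 kb downstream, was shared at 849 bp with support 7 and 552 bp with support 5. An RPMI8226-only distal peak 61.6 kb downstream was called in all 5 libraries (492 bp). In MM.1S 4 of the 14 peaks (28.6%, 11.7 to 54.6) had been called in all 9 libraries, against 52.0% of the list. In RPMI8226 11 of 17 (64.7%, 41.3 to 82.7) had been called in all 5, near the 64.1% of the list.

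Peaks that were a single interval in MM.1S and several in RPMI8226 recurred at start sites, at CUL4A, CUL4B, IKZF1, IKZF2 and ZFP91. Such peaks also lay at promoters of neighbours in the windows, among them GRB7, ORMDL3 and ERBB3. How often peaks were split in this way over the lists was not counted. Widths were compared where 1 peak of a list overlapped exactly 1 of the other, which leaves out the split peaks. Among 84 such pairs in the windows MM.1S had the wider peak in 67 (79.8%), against 81.6% of 44631 pairs over the lists. The median width of the pairs was 599 bp in MM.1S and 435.5 bp in RPMI8226, against 586 and 420 bp over the lists. The windows were thus close to the lists in this respect. Both partners had full support in 56 pairs (66.7%), against 56.3% over the lists.

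**Figure D5:**
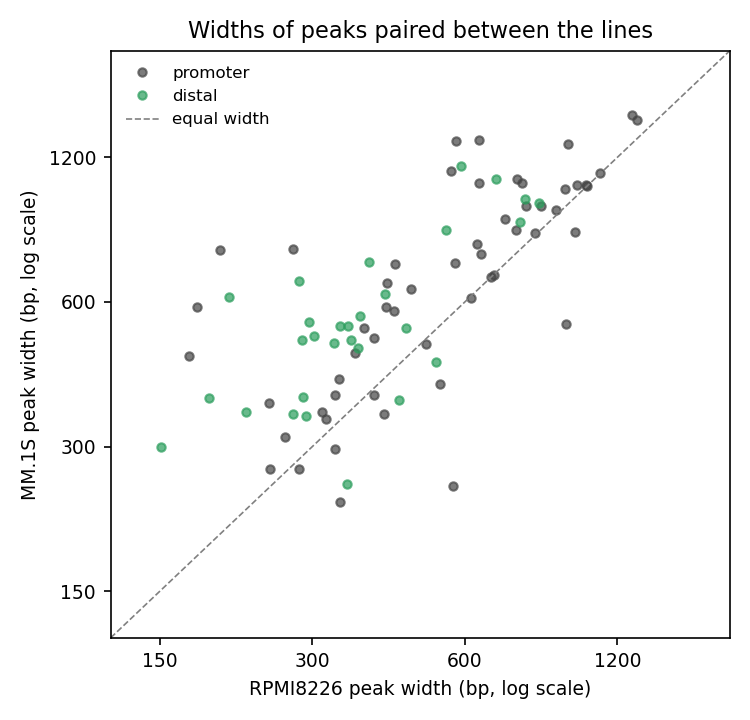
Widths of the 84 window peaks that pair one to one between the lists, RPMI8226 on the horizontal and MM.1S on the vertical axis (bp, log scales), with promoter peaks in grey and distal peaks in green. Of these, 67 lie above the dashed line of equal width.

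Motif letters were sought on both strands in the central 300 bp of each peak. The Ikaros core TGGGAA was present in 19 of 58 distal window peaks in MM.1S (32.8%, against 22.8% of all distal MM.1S peaks) and in 13 of 42 in RPMI8226 (31.0%, against 22.1%). Many of the RPMI8226 peaks overlap the MM.1S peaks, so these are not independent counts. Among promoter peaks the core was found in 21.2% and 20.7%, against 20.8% and 21.2% of the lists, and among 35116 RefSeq promoters in 24.0%. The AP-1 motif TGACTCA was present in 2 of 58 distal window peaks in MM.1S (3.45%, against 12.1%) and in 5 of 42 in RPMI8226 (11.9%, against 20.7%). Among promoter peaks it was near the lists, at 6.25% in MM.1S (against 6.44%) and 12.2% in RPMI8226 (against 11.6%). The ETS motif CCGGAAGT was present in 7 of 82 promoter window peaks in RPMI8226 (8.54%, against 2.91%) and in 4 of 80 in MM.1S (5.0%, against 2.77%). No distal window peak held it, against 0.471% and 0.447% of all distal peaks. Over all window peaks, promoter and distal together, the CRE motif TGACGTCA was present in 3 of 138 in MM.1S (2.17%, against 0.618%) and in 4 of 124 in RPMI8226 (3.23%, against 0.634%). The ATF and CEBP motif TGATGNAA was present in 2 (1.45%, against 4.61%) and 1 (0.806%, against 4.95%). The STAT motif TTCNNNGAA was below its list in MM.1S (6 peaks, 4.35%, against 7.73%) and above it in RPMI8226 (12 peaks, 9.68%, against 8.22%). The interferon regulatory factor repeat was present in 10.9% and 10.5%, against 14.4% and 13.9%, and the CTCF motif in 4.35% and 4.03%, against 4.64% and 3.59%. Values over all peaks mix classes, because promoter peaks were a larger part of the windows than of the lists. Among promoter peaks the repeat was at 10.0% in MM.1S (against 9.51%) and 8.54% in RPMI8226 (against 9.99%). Among distal peaks it was at 12.1% (against 17.6%) and 14.3% (against 16.2%). In each class CRE stayed above the lists and ATF and CEBP below them. These differences rest on few peaks and were not tested.

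All 23 listed partners of the ligase had a promoter peak with full support in each line. They include the RING subunit RBX1, the modifier NEDD8 that activates cullins, and the subunits of the COP9 signalosome that removes it. Of 21 other cereblon substrates and client proteins, 21 had a promoter peak in MM.1S and 19 in RPMI8226. The exceptions were SALL4, the developmental zinc finger factor whose loss is linked to thalidomide birth defects (support 7 in MM.1S), and GLUL, the glutamine synthetase gene (support 9 in MM.1S). Among 6 genes known downstream of Ikaros and Aiolos, 5 had a promoter peak in MM.1S and 6 in RPMI8226. IRF4, PRDM1, BCL6, CD38 and SPI1 had one in both lines, and IL2 had one in RPMI8226 only, with support 5. These counts stand beside the 76.8% and 71.8% of all protein-coding genes with a promoter peak of any support. The share of all genes with full support was not computed.

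As a check of the labelled cell type, 8 of 8 plasma cell marker genes, among them SDC1, TNFRSF17 and XBP1, had a promoter peak in each line. Of 8 stromal marker genes 5 (62.5%) had one in each line, and COL3A1, LUM and THY1, the gene of the CD90 antigen used in the sort, had none. Most protein-coding genes had a promoter peak (76.8% and 71.8%), so that these counts over 8 genes each are a weak check. The stromal genes with a promoter peak had best support of 6 to 9 in MM.1S and of 3 to 5 in RPMI8226. The paper reports a minimal level of HS5 cells among the MM cells sorted from the lower chamber. Whether stromal DNA contributed to any peak described here was not tested.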

How the data were processed

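Omni-ATAC peak lists of MM.1S (9 libraries) and RPMI8226 (5 libraries) were used, with samples grouped from their titles. The authors mapped read pairs to hg38 with Bowtie2, as their methods state, kept uniquely mapped reads and 1 read per position, called peaks with MACS3 and retained peaks present in at least 3 libraries of a line. Versions, the peak threshold and the joining of boundaries are not given in the sources used here. The deposited lists hold a chromosome, start, end and a whole number, read as the number of libraries with the peak, to which the authors applied no normalization. No header names it. Starts were read as counted from 0, and 1 was added. The lists carry no depth, and no precision from depth is stated. Read totals of the libraries, which the study's supplement gives, were not used here.

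Peaks overlapping a GENCODE release 44 gene body or its 100 kb flanks were taken for the 10 members. Promoters reached 2500 bp each side of any annotated start site, whereas the authors used RefSeq. Distances ran from the peak midpoint to the canonical start. Shares were given with 95% Wilson intervals (scipy 1.17.1) and set beside all peaks or all protein-coding genes. Overlap code was tested on simulated data. Runs are consecutive peaks of a list without overlap with the other list. Motifs (8) were matched by letters. RefSeq promoters matched 9 of 10 members. All own-promoter peaks, the widest distal peak per member and line, and line-only distal peaks with full support were to be named, and other genes only as promoter owners, hosts of such peaks or listed partners. The members and lists were chosen with earlier results of these data known. Comparisons of MONO, TSW and CO need values per library and were not made. Alternatives were other flanks, promoter widths, transcript sets, overlap rules and support, width and distal filters.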

Additional observations from a re-analysis of the deposited data

How the results depend on the processing

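Of 52 alternative values for the main counts and shares, 26 stayed within 1.5 times the count or within the interval of the share, and 26 moved. With gene bodies alone the windows held 34 MM.1S and 28 RPMI8226 peaks, with flanks of 50 kb 91 MM.1S peaks, and with flanks of 200 kb 217 and 207. Filtering to peaks called in all libraries left 77 MM.1S peaks, and filtering to peaks no narrower than the list median left 71 and 73. The shared percentage became 55.8 (MM.1S) and 62.1 (RPMI8226) when an overlap had to span 50% or more of each peak, 89.6 and 95.7 among peaks called in all libraries, and 50.0 and 71.4 among distal peaks. It was 52.9 in MM.1S gene bodies and 74.4 in RPMI8226 with 200 kb flanks. The percentage called in all libraries became 44.8 and 64.3 among distal peaks, and 81.7 and 93.2 among wide peaks. The promoter percentage became 47.1 and 56.5 with promoters of 1000 bp each side, and 43.5 and 55.6 with protein-coding transcripts only. In MM.1S it was 67.4 with promoters of 5000 bp and 66.2 among peaks called in all libraries. These alternatives take fewer, more or other peaks by construction. Apart from the shared percentage of distal peaks, given above, whole-list shares were not computed under the changed overlap, promoter, support, width and distal rules. Those values have no background and are not comparable with the list shares given above.

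Under every alternative that was planned, all 10 members had a peak at an own start site in each line. The share of all protein-coding genes under these alternatives was not computed, so these counts have no background. Leaving out single replicates was not possible because the lists hold no value per library. No paired analysis was possible because the lists hold no value per library and no result comes from a test. The minimum of 3 libraries is a smaller share of 9 libraries than of 5.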
